A study of Populus ussuriensis with 18 samples.

Results

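Roots of Populus ussuriensis, a poplar tree, that had spent 336 h on low-nitrogen (LN) medium were compared with control roots taken at 0 h. The comparison held the 3 LN libraries of 336 h and the 3 control libraries, 6 of the 18 root libraries of the series. Its genes were all those with at least 1 FPKM (fragments per kilobase of gene, scaled to the library total) in at least 3 of these 6 libraries, which left 23320 of 30485 genes. The plantlets were propagated clonally in vitro and rooted for 3 weeks on control medium. Nitrate was at 10 mM and ammonium at 5 mM in that medium, against 0.05 mM and 0.025 mM in the LN medium. RNA came from the whole root system of 3 biological replicates per group, so fewer cells of a type and less RNA per cell cannot be told apart. Roots kept on control medium until 336 h were not analysed here. Time since transfer, plant age and N supply therefore changed together, and since the labels give each time point its own batch name, batch and group cannot be told apart either.

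Plants take up nitrate mainly through transporters of the NRT1/PTR (NPF) and NRT2 families and ammonium through AMT transporters. Nitrate is reduced to nitrite by nitrate reductase and to ammonium by nitrite reductase, and glutamine synthetase binds ammonium into glutamine. Proteins of the NLP family switch on genes of nitrate use, and in Arabidopsis the repressors of the LBD37 group and cytokinin act in the same network. Roots short of N are known to keep uptake systems for traces of N, to break down N compounds already in the plant and to make more flavonoids and other phenolics.

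Depth differed little between the 6 libraries, with 17149478 to 17517383 fragments counted on genes in the control and 16526475 to 17863294 at 336 h. Replicates of a group correlated at r = 0.993 to 0.996 across genes, and replicate 2 of 336 h stood somewhat apart from the other two, with 79 and 74 genes that differed by more than 1 log2 unit against 29 between replicates 1 and 3. The 100 most abundant genes took 14.8% to 15% of fragments in the control and 9.88% to 10.5% at 336 h. The median over all genes of log2(FPKM + 1) was 2.57 in the control and 2.83 at 336 h (means of 3 libraries, SD 0.022 and 0.048). All 3 values of 336 h lay above all control values, and the exact two-sided permutation test gave p = 0.1, the smallest that 3 against 3 allows. The 16 listed markers of root cell types include SHORT-ROOT and SOMBRERO, which were higher at 336 h, and AGL12, which was lower. The summed level of all 16 was 41.3 to 43.9 FPKM in the control and 61.4 to 70.2 FPKM at 336 h. The median difference of the tested members, on the log2(FPKM + 1) scale, was -0.01. Among the 8 genes of photosynthesis the summed level was 418 to 438 FPKM in the control and 96.6 to 127 FPKM at 336 h. Of both lists only 1 member was at 0 in all libraries of a group, the WER match Potri.015G075800 in the control.

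Changes were counted as differentially expressed genes (DEGs), with an absolute difference of at least 1 on the log2(FPKM + 1) scale and a Benjamini-Hochberg adjusted p under 0.05 in limma. Of the 23320 genes, 1931 rose at 336 h (8.28%) and 948 fell (4.07%), together 12.3%. In 69.9% of genes the 3 values of one group all lay outside the range of the other. The median difference over all genes was 0.21, and quantile normalization, which gives all libraries the same distribution, brought it to 0.01. It then left 1301 rises (5.58%) and 1260 falls (5.4%), so the share of rises among the DEGs went from 67.1% to 50.8%. Every difference below is at 336 h minus control on the log2(FPKM + 1) scale, ± SE from limma with 3 libraries per group. The added 1 understates changes of low genes, so FPKM are given as well. A gene under 1 FPKM in all 3 libraries of a group entered only through the other group and could only be called higher there. Among the genes named below, this holds for Potri.007G100100, Potri.001G305400, NPF6.4, purple acid phosphatase 17, TIFY 10b, CEL2, MYB111 and WER. It holds as well for both LOG genes, both gibberellin 20 oxidases, GASA12 and both ERF017 matches. Of the genes that fell, it holds for Potri.011G112900, ORG2, MYB51 and the photosystem II 10 kDa polypeptide. "Rose" and "fell" are used only of DEGs, whose adjusted p was at most 0.00032 for the genes named.

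**Figure D1:**
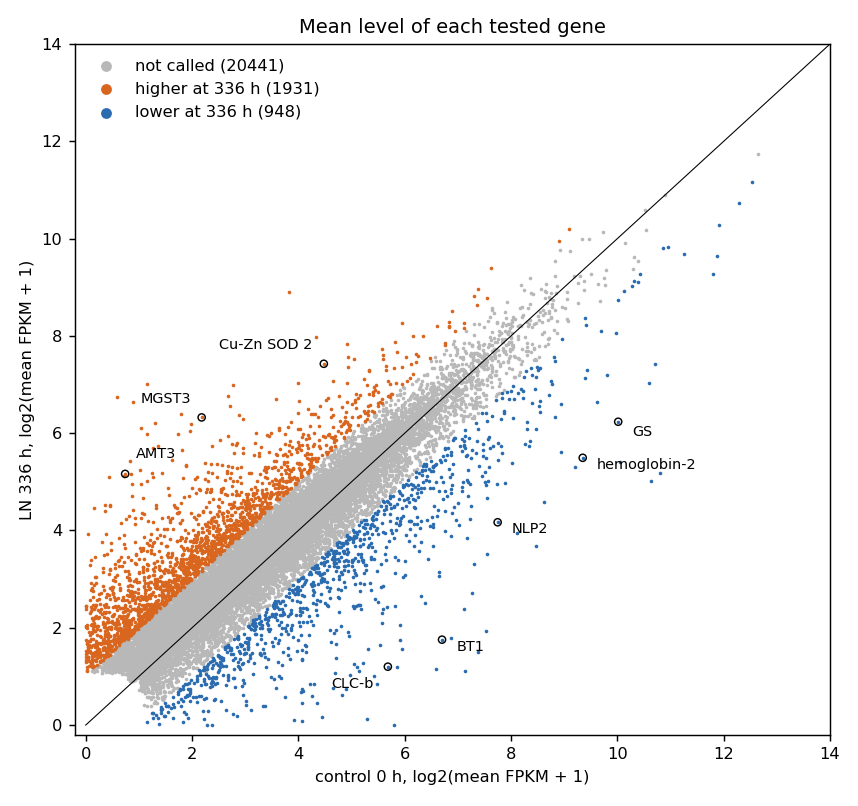
Mean level of every tested gene in the control (x axis) and at 336 h (y axis), both as log2(mean FPKM + 1) of 3 libraries. Grey points are the genes not called as DEGs, orange the 1931 that rose and blue the 948 that fell. Labelled points are annotated genes picked from those named in the text, and some annotated genes with wider changes carry no label. AMT3, the ammonium transporter, is at the upper left and glutamine synthetase (GS) at the lower right.

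Where groups did not overlap and the mean reached 5 FPKM, the largest rise was that of Potri.007G100100, at 0.612, 0.317 and 0.573 FPKM in the control and 110.1, 95.9 and 111 FPKM at 336 h. It was all but absent from the control and rose by 6.16 ± 0.10. The largest fall was that of Potri.006G245900, at 133, 143 and 144 FPKM in the control and 1.19, 1.22 and 1.05 FPKM at 336 h, a difference of -6.03 ± 0.07. The tables used here do not annotate either gene. Among annotated genes, the study's best matches in UniProt gave the names used below, and roles are those known for the named protein, mostly in Arabidopsis. The digits before G in an identifier give the P. trichocarpa chromosome, and T marks a scaffold. The gene lists below were drawn from the study's tables, which were chosen on these same libraries. Neither their shares of DEGs nor their directions are therefore independent evidence. Of the 889 tested genes with annotation, 448 were DEGs. A list share above the 12.3% of all genes can follow from that choice alone and is not read as a result. Each median stands beside the 0.21 of all genes. ARR3, the transporter Potri.010G063500, SHORT-ROOT and GIGANTEA were picked after their values were seen, and the other genes by rule.

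Most ammonium transporters rose, with 5 up among 7 tested genes (median difference 1.36). The widest rise of the list was that of Potri.001G305400 (ammonium transporter 3 member 1), at 0.715, 0.425 and 0.874 FPKM in the control and 36.6, 29.6 and 38.3 FPKM at 336 h. Control roots held almost none of it, so it passed the filter only through its values at 336 h and could only be called higher. Potri.010G063500 (ammonium transporter 1 member 1), of the type that takes up ammonium at the root surface in Arabidopsis, was at 27.7, 29.4 and 27.6 FPKM in the control and 74.5, 64.8 and 84.8 FPKM at 336 h. The differences were 4.42 ± 0.13 and 1.37 ± 0.10, and Potri.T000200, a further transporter 3 member 1, rose by 1.8 ± 0.09. Potri.019G023600 (AMT1;2A), the most abundant ammonium transporter of the control, did not pass the fold limit, at 157, 164 and 166 FPKM in the control and 110.4, 86.7 and 122 FPKM at 336 h and a difference of -0.62 ± 0.12. Several genes were matched to transporter 3 member 1 and may share reads, and the sources used here do not give how the counting split such reads.

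NPF transporters moved both ways, with 10 up and 6 down among 26 tested genes (median difference 0.42, 6 up and 6 down after quantile normalization). Potri.010G068100, named for NPF5.2, a peptide transporter of Arabidopsis, was at 36, 35.6 and 33.9 FPKM in the control and 4.67, 3.65 and 4.36 FPKM at 336 h. It fell by 2.8 ± 0.09, the largest fall of the family. Next came Potri.018G040500 and Potri.018G041600, both named for NPF1.2, which moves nitrate in the phloem of Arabidopsis leaves, with differences of -1.69 ± 0.10 and -1.49 ± 0.20. Among the rises, Potri.002G225500 (NPF6.4), at 0.166, 0.041 and 0.102 FPKM in the control and 2.41, 2.67 and 2.09 FPKM at 336 h, had the widest difference with 1.62 ± 0.09. Potri.009G042400 and Potri.006G096800, matches of the dipeptide transporter NPF8.1, rose from means of 21.1 to 60.6 FPKM and from 3.48 to 11.1 FPKM. Potri.010G126300 (NPF3.1B) rose too, by 1.16 ± 0.07. The 3 genes matched to NPF7.3, which loads nitrate into the xylem in Arabidopsis, did not pass the fold limit. Their differences were -0.74 ± 0.06 for Potri.001G145200 (NPF7.3A), -0.34 ± 0.10 for Potri.003G088800 (NPF7.3B) and 0.60 ± 0.07 for Potri.014G179400 (NPF7.3C).

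Nitrite reductase and a glutamine synthetase fell to a small part of their control level. Glutamine synthetase root isozyme A (Potri.004G085400) was among the most abundant genes of control roots, at 1048, 1047 and 1007 FPKM in the control and 78.8, 65.7 and 78.4 FPKM at 336 h. The difference was -3.78 ± 0.09. Ferredoxin-nitrite reductase (Potri.004G140800, NIRA) was at 489, 477 and 495 FPKM in the control and 47.6, 51.6 and 43.8 FPKM at 336 h, a difference of -3.33 ± 0.08. Both groups of values lay far apart for both genes. Potri.006G051500, an amidohydrolase that removes the amide from N-terminal glutamine, fell from 85.6 to 9.69 FPKM. In contrast, 2 neighbouring genes of ureide permease 2 (Potri.008G095500 and Potri.008G095600), a carrier of allantoin and uracil in Arabidopsis, rose. The first was at 3.79, 3.18 and 3.17 FPKM in the control and 28.4, 24.4 and 30.4 FPKM at 336 h. The second was at 7.84, 8.28 and 6.09 FPKM in the control and 38.6, 32.2 and 34.5 FPKM at 336 h. No library of 336 h overlapped the control in either, with differences of 2.71 ± 0.10 and 2.11 ± 0.12. Over the whole list of N assimilation and recycling, 4 of 17 tested genes rose and 3 fell (median -0.09). A chloride channel protein CLC-b (Potri.001G331700), a vacuolar nitrate and chloride carrier in Arabidopsis, fell from 50.4 to 1.3 FPKM, and hemoglobin-2 (Potri.009G110800), an oxygen-binding protein, fell from 651 to 44.1 FPKM.

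**Figure D2:**
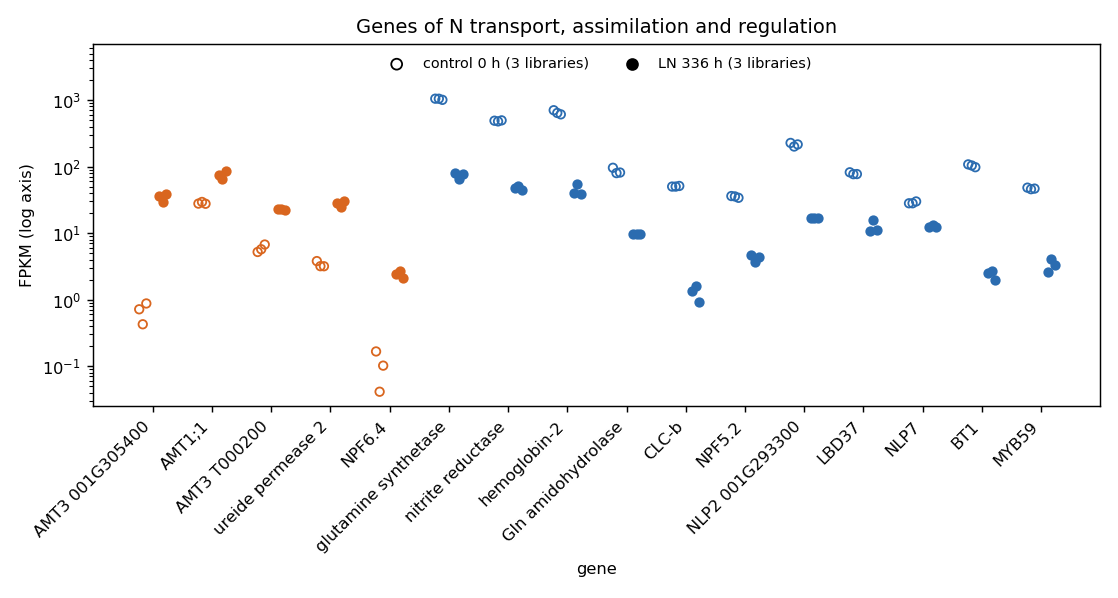
FPKM (log axis) of 16 genes of N transport, assimilation and regulation in each library, open circles for the 3 control libraries and filled circles for the 3 libraries of 336 h. The 5 genes on the left rose and the 11 on the right fell. The groups overlapped in none of the 16, and they did not overlap in 69.9% of all tested genes either.

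Regulators of the nitrate response fell more often than they rose, with 3 up and 8 down among 13 tested genes (median difference -1.20). Potri.001G293300, a match of NLP2, was at 227, 200.1 and 215 FPKM in the control and 17.1, 16.7 and 17.1 FPKM at 336 h, a difference of -3.58 ± 0.07. The 3 values of 336 h lay within 1 FPKM of each other, far below the control. Potri.005G145500, a match of LBD37, a repressor that nitrate switches on in Arabidopsis, was at 82, 76.8 and 77.1 FPKM in the control and 10.8, 15.8 and 10.9 FPKM at 336 h and fell by 2.58 ± 0.13. Potri.001G087900 (NLP7), named for the nitrate sensor of Arabidopsis, fell by 1.12 ± 0.06, and Potri.005G082000 (TGA1A) and Potri.007G079900 (TGA4), named for bZIP factors of the nitrate response, fell by 1.34 ± 0.07 and 1.2 ± 0.10. TGA1B (Potri.007G085700) just missed the fold limit with -0.98 ± 0.06. SnRK1 is a kinase that acts when energy is short, and its genes were split. The catalytic KIN10 (Potri.013G090800) and the regulatory subunit SnRK1β1 (Potri.001G220800) fell by 1.75 ± 0.13 and 1.73 ± 0.08, while SnRK1β2 (Potri.014G167400) rose by 1.55 ± 0.07. Also higher were another NLP2 match (Potri.005G251700), from 3.86 to 15.1 FPKM, and NLP8 (Potri.007G133400), from 3.19 to 9.08 FPKM, although the latter missed the fold limit after quantile normalization (0.99). The largest fall among annotated genes was that of a BTB/POZ and TAZ domain protein 1 match (Potri.015G087700), of a family that nitrate induces and that limits nitrate use in Arabidopsis. It was at 108, 104 and 97.8 FPKM in the control and 2.47, 2.71 and 1.95 FPKM at 336 h, a difference of -4.95 ± 0.10. A match of MYB59 (Potri.010G064000), which acts on root-to-shoot transport of nitrate and potassium in Arabidopsis, fell from 46.8 to 3.3 FPKM.

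Genes of phosphate and iron status mostly fell, with 1 up and 4 down among 7 tested genes (median difference -1.77). Adjacent matches of the MYB factor PHL5, Potri.016G048000 and Potri.016G047900, fell to the same low range. The first was at 62.1, 51.1 and 56.6 FPKM in the control and 1.14, 1.34 and 1.34 FPKM at 336 h. The second was at 64.7, 58.5 and 58.5 FPKM in the control and 2.26, 2.08 and 1.56 FPKM at 336 h. All 3 values at 336 h were under 3 FPKM for both genes, with differences of -4.66 ± 0.09 and -4.38 ± 0.10. Of the bHLH factors of iron supply, ILR3 (Potri.011G030900) fell from 149 to 29.9 FPKM and ORG2 (Potri.016G037300) was at 2.54, 2.75 and 2.31 FPKM in the control and 0.057, 0 and 0.058 FPKM at 336 h. Without replicate 3 of 336 h, 2 genes rose. The single rise with all libraries was that of a purple acid phosphatase 17 match (Potri.012G042200), an enzyme of phosphate starvation, at 0.348, 0.126 and 0.465 FPKM in the control and 3.34, 3.28 and 3.4 FPKM at 336 h.

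Genes of superoxide removal mostly rose, with 6 up and 1 down among 9 tested genes (median difference 1.36). The copper-zinc enzymes led, among them Potri.005G044400 (superoxide dismutase [Cu-Zn] 2), at 22.1, 20.6 and 21.2 FPKM in the control and 173, 162 and 178 FPKM at 336 h. A second copper-zinc gene, Potri.013G031100, was at 53.2, 43.3 and 42.6 FPKM in the control and 208, 207 and 215 FPKM at 336 h. In both genes every library of 336 h lay far above the highest control value, and the differences were 2.95 ± 0.07 and 2.16 ± 0.09. The copper chaperone that loads these enzymes (Potri.001G113800) rose by 2.26 ± 0.09. The iron enzyme [Fe] 2 (Potri.015G110400) moved the other way, at 35.2, 35.1 and 32.3 FPKM in the control and 4, 4.89 and 4.64 FPKM at 336 h, a fall of 2.68 ± 0.08. In the list of catalase, ascorbate-glutathione and peroxiredoxin genes, all DEGs fell, with 4 down among 11 tested genes (median difference -0.97). Catalase-2 (Potri.005G100400), a peroxisomal enzyme, was at 44.5, 45.9 and 46.3 FPKM in the control and 1.63, 2.7 and 2.07 FPKM at 336 h, a difference of -3.91 ± 0.12, and peroxiredoxin-2E (Potri.013G102100) and monodehydroascorbate reductase 5 (Potri.001G099600) fell by 2.11 ± 0.06 and 2.1 ± 0.08.

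Families that act in the cell wall and in detoxification moved both ways. Of class III peroxidases, which cross-link lignin and handle peroxide at the wall, 16 of 48 tested genes rose and 8 fell (median 0.00, 15 up and 11 down after quantile normalization). PODN1 (Potri.016G125000) was at 5.81, 5.64 and 5.35 FPKM in the control and 34, 28.6 and 35.8 FPKM at 336 h and rose by 2.35 ± 0.09, and peroxidase 9 (Potri.002G031200) was at 94.7, 98.2 and 95.2 FPKM in the control and 17.4, 21 and 17.2 FPKM at 336 h and fell by 2.32 ± 0.09. Of glutathione S-transferases, which couple glutathione to other compounds, 12 of 38 tested genes rose and 12 fell (median -0.24). The falls were led by 3 of 5 genes on chromosome 11 matched to parC. The first, Potri.011G112900, went from 19.4 to 0.378 FPKM, and these copies may share reads. GST23B (Potri.008G175100), at 27.2, 25.8 and 25.1 FPKM in the control and 115, 94.3 and 114 FPKM at 336 h, and GSTU8 (Potri.015G042000), at 1.16, 1.4 and 1.21 FPKM in the control and 8.5, 8.12 and 9.53 FPKM at 336 h, were among the rises. A microsomal glutathione S-transferase 3 match (Potri.017G140900) had one of the widest rises of all annotated genes, from 3.53 to 79.1 FPKM. Respiratory burst oxidases, which make superoxide at the plasma membrane, rose in 3 of 5 tested genes, and in 2 after quantile normalization. Germin-like proteins sit in the cell wall, and 6 of 14 tested genes rose and 1 fell (median 0.85). Their leading member Potri.009G140400 (germin-like protein subfamily 1 member 13) was at 0.376, 1.01 and 1.05 FPKM in the control and 31.6, 42 and 31.1 FPKM at 336 h, a difference of 4.32 ± 0.18.

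**Figure D3:**
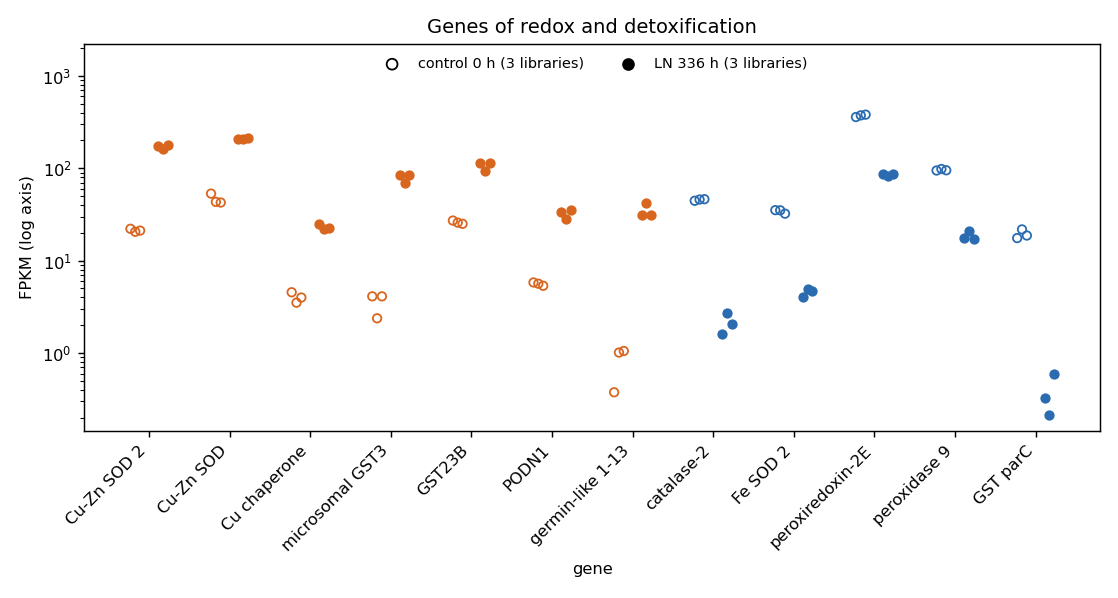
FPKM (log axis) of 12 genes of redox and detoxification in each library, open circles for the 3 control libraries and filled circles for the 3 libraries of 336 h. The 7 genes on the left, with the Cu-Zn dismutases, rose, and the 5 on the right, with catalase-2 and the iron dismutase, fell. Groups did not overlap in these genes, as in 69.9% of all tested genes.

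Cytokinin genes fell more often than they rose, with 3 up and 9 down among 23 tested genes (median difference -0.69). Cytokinin hydroxylase (Potri.004G100400), which makes trans-zeatin, was at 17.1, 14.8 and 15.2 FPKM in the control and 1.14, 1.99 and 1.58 FPKM at 336 h and fell by 2.71 ± 0.12. The response regulators ARR5 (Potri.015G070000) and ARR3 (Potri.008G193000), of the type that cytokinin switches on, went from means of 48.5 to 10.5 FPKM and from 78 to 17.4 FPKM. A zeatin O-glucosyltransferase (Potri.006G048200) fell by 2.26 ± 0.09. The 3 rises included 2 LOG-type phosphoribohydrolases (Potri.005G248900 and Potri.003G219300), which release active cytokinin, with differences of 1.47 ± 0.10 and 1.45 ± 0.12 at levels under 4 FPKM.

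Jasmonate genes mostly rose, with 7 up and 1 down among 12 tested genes (median difference 1.34). Allene oxide synthase (Potri.014G038700), which commits a lipid peroxide to jasmonate synthesis, was at 5.77, 6.2 and 6.63 FPKM in the control and 54.8, 48.3 and 60.1 FPKM at 336 h, a difference of 2.94 ± 0.09. Genes of the TIFY repressors, which jasmonate switches on, were led by TIFY 9 (Potri.001G062500), at 1.51, 2.07 and 2.2 FPKM in the control and 28.1, 26.2 and 30.3 FPKM at 336 h. TIFY 10b (Potri.003G068900) was at 0.119, 0.039 and 0.233 FPKM in the control and 10.6, 8.48 and 10.7 FPKM at 336 h. The control held little of either, and the differences were 3.32 ± 0.11 and 3.27 ± 0.10. With all 18 libraries in 1 fit, the list kept 3 rises, those of these genes, and its fall was not called without replicate 3 of 336 h.

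Of the genes of salicylate and systemic resistance, 17 of 40 tested genes rose and 7 fell (median 0.88, 14 up and 8 down after quantile normalization). A match of DMR6 (Potri.015G002800), an oxygenase that breaks down salicylate in Arabidopsis, was at 4.37, 4.22 and 4.06 FPKM in the control and 52.3, 50.1 and 54.9 FPKM at 336 h and rose by 3.36 ± 0.07. Matches of WRKY70, a factor downstream of salicylate (Potri.016G137900 and Potri.006G109100), rose by 2.75 ± 0.08 and 2.63 ± 0.07. A match of a DMR6-like oxygenase (Potri.010G231500) fell, by 1.78 ± 0.10. Some other members of this list lie in groups of neighbours that may share reads. Of Bet v 1 proteins, small proteins that bind plant metabolites, 10 of 18 tested genes rose and 4 fell (median 1.18). Potri.011G026200, matched to major allergen Pru ar 1, was at 11.2, 10.5 and 10.9 FPKM in the control and 100.2, 92.3 and 117 FPKM at 336 h. It rose by 3.12 ± 0.09. The most abundant member, Potri.010G111000 (MLP-like protein 31), was at 3927, 3891 and 3699 FPKM in the control and 1263, 1202 and 1266 FPKM at 336 h. Its difference of -1.63 ± 0.06 was -0.34 after quantile normalization, which ended that call.

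Of gibberellin genes, 5 of 15 tested genes rose and 1 fell (median difference -0.17, 4 up and 2 down after quantile normalization). The median lay below the 0.21 of all genes. Gibberellin 20 oxidase 2 (Potri.012G132400), an enzyme of the last steps of synthesis, was at 0.461, 0.294 and 0.612 FPKM in the control and 9.39, 9.16 and 8.4 FPKM at 336 h and rose by 2.78 ± 0.09, followed by 20 oxidase 1-B (Potri.015G134600) with 1.79 ± 0.09. The gibberellin 3-beta-dioxygenase 1 (Potri.001G176600), which makes the active hormone, fell from 9.59 to 4.2 FPKM, a difference of -1.03 ± 0.10 that was -0.97 without replicate 1 of 336 h and -0.99 without replicate 3, both under the fold limit. Without replicate 2 of 336 h or replicate 2 of the control, 2 genes of the list fell. GASA peptides, a gibberellin-responsive family of small cysteine-rich proteins, mostly rose, with 8 up among 12 tested genes (median difference 1.42, 6 up after quantile normalization). GASA12 (Potri.017G124200) was at 0.303, 0.451 and 0.519 FPKM in the control and 7.05, 9.19 and 4.44 FPKM at 336 h, a difference of 2.43 ± 0.20. GASA1 (Potri.002G022500) was at 1.18, 0.26 and 0.77 FPKM in the control and 8.3, 8.84 and 6.79 FPKM at 336 h, a difference of 2.4 ± 0.19. Of genes of auxin transport, synthesis and reception, 5 of 11 tested genes rose and 1 fell (median 0.78). An auxin conjugate hydrolase (ILR1-like 6, Potri.002G082400), which frees auxin from amino acids, was at 3.33, 4.61 and 3.47 FPKM in the control and 29.5, 22.7 and 27.2 FPKM at 336 h, and the efflux carrier 3 (Potri.010G112800) rose by 1.8 ± 0.06. Of the Aux/IAA repressors, 3 of 12 tested genes rose and 1 fell (median 0.45, 1 up and 2 down after quantile normalization). ACO1 (Potri.011G020900), an enzyme of the last step of ethylene synthesis, was at 1.36, 0.853 and 1.61 FPKM in the control and 13.6, 7.81 and 14.4 FPKM at 336 h and rose by 2.48 ± 0.22.

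**Figure D4:**
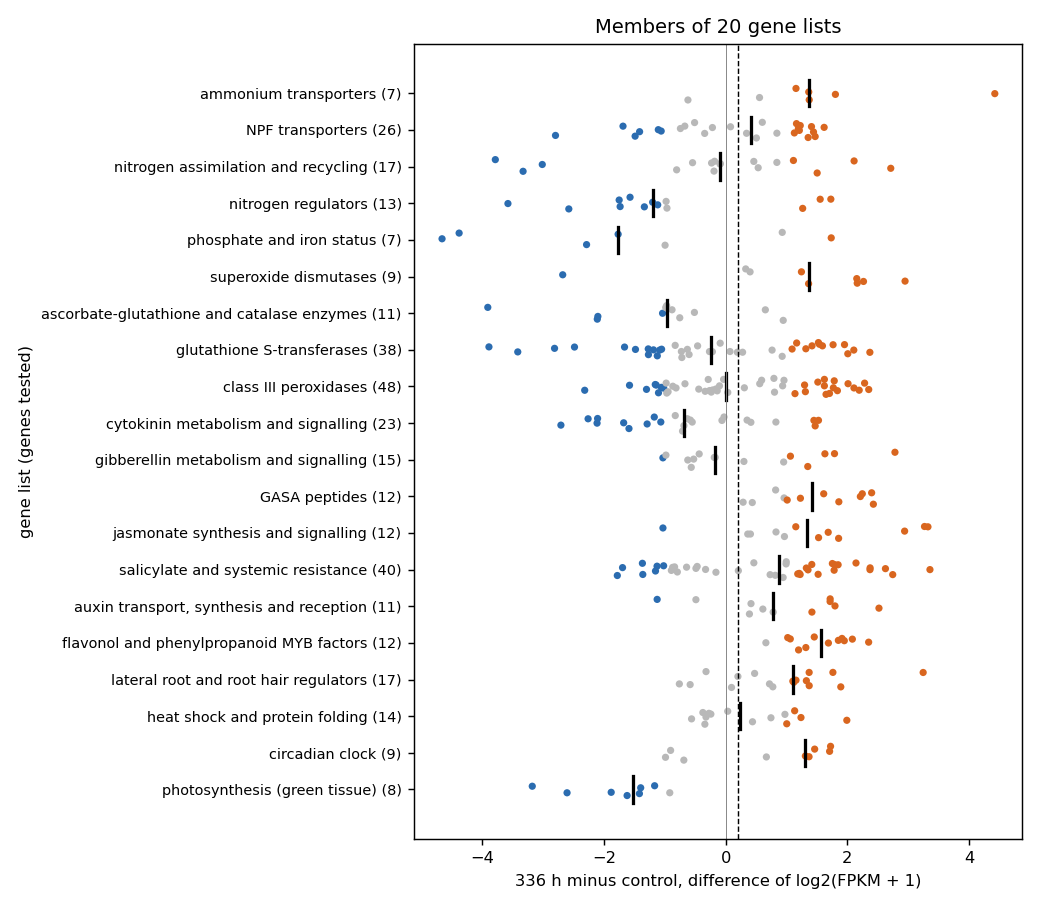
Difference of each tested member, 336 h minus control on the log2(FPKM + 1) scale, in 20 gene lists; filled points are DEGs (orange rose, blue fell), grey points are not, and the black bar is the median of the list. The dashed line is the median of all 23320 genes, 0.21; lists of superoxide dismutases, ammonium transporters and flavonol MYB factors lie mainly to its right, and lists of N regulators, photosynthesis and phosphate and iron status mainly to its left.

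MYB factors of the flavonol and phenylpropanoid branch mostly rose, with 11 up among 12 tested genes (median difference 1.57, 8 up after quantile normalization). Members of both kinds were among them, the activator MYB12 (Potri.003G144200), at 1.33, 0.738 and 1.35 FPKM in the control and 7.4, 7.78 and 6.44 FPKM at 336 h, and the repressor MYB4 (Potri.010G114000), at 1.56, 1.22 and 2.23 FPKM in the control and 13.1, 12.9 and 11.4 FPKM at 336 h. MYB111 (Potri.014G122700), a flavonol activator in Arabidopsis and a member of the study's RT-qPCR panel, was at 0.22, 0.254 and 0.215 FPKM in the control and 3.38, 4.94 and 3.26 FPKM at 336 h. All 3 were low in control roots, with differences of 1.95 ± 0.13, 2.35 ± 0.13 and 1.97 ± 0.12. Leucoanthocyanidin reductase, an enzyme of catechin synthesis, rose in 2 of the 3 copies with annotation that were tested. Potri.010G129800 was at 15.1, 17.2 and 15.6 FPKM in the control and 62.4, 61.8 and 63.3 FPKM at 336 h and Potri.008G116500 rose from 73 to 176 FPKM.

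Among transcription factor families with at least 20 tested genes, rises outnumbered falls in AP2/ERF (27 and 6 of 60), MYB (27 and 5 of 73), BHLH (20 and 2 of 51), WRKY (14 and 2 of 28) and B3 (8 and 1 of 20), and were equal in bZIP (7 and 7 of 23). After quantile normalization rises still outnumbered falls in the first 5 families, by 19 to 8, 18 to 6, 11 to 6, 13 to 3 and 4 to 3, and not in bZIP (7 to 9). All 8 DEGs of the 13 tested NAC factors and all 4 of the 7 tested NF-Y factors rose. These families come from the study's table of regulated factors. HY5 is a bZIP factor that links light to nitrate uptake in Arabidopsis. Its match Potri.018G029500 was at 5.08, 4.79 and 5.65 FPKM in the control and 25.5, 28.8 and 23.8 FPKM at 336 h. A second match, Potri.006G251800, was at 1.86, 1.25 and 0.876 FPKM in the control and 13.9, 16.3 and 12.1 FPKM at 336 h. The libraries of 336 h were higher in both, by 2.13 ± 0.09 and 2.71 ± 0.16. WRKY75 (Potri.015G099200), a factor of phosphate starvation and root hair growth in Arabidopsis, was at 1.07, 1.15 and 1.22 FPKM in the control and 19, 18.9 and 20.1 FPKM at 336 h and rose by 3.25 ± 0.07. An NF-Y subunit B match (Potri.014G132600) rose from 2.39 to 19.9 FPKM. The ERF RAP2-3 (Potri.014G126100) was the AP2/ERF gene with the largest fall, at 131, 126 and 122 FPKM in the control and 23.5, 21.7 and 22.5 FPKM at 336 h. MYB51 (Potri.008G089200) was at 4.69, 3.53 and 4.32 FPKM in the control and 0, 0 and 0 FPKM at 336 h. It had no fragment in any library of 336 h and was at least 89-fold lower, taking 3 fragments in the group's libraries together as the floor.

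Of lateral root and root hair regulators, 9 of 17 tested genes rose (median 1.10, 6 up after quantile normalization), among them ETC1 (Potri.004G021300), which patterns the epidermis, with 1.89 ± 0.16. Of root cell type markers, 4 of 10 tested genes rose and 1 fell (median -0.01). The root cap factor SOMBRERO (Potri.010G176600) was at 1.7, 1.92 and 1.36 FPKM in the control and 7.67, 8.17 and 6.27 FPKM at 336 h and the endodermal regulator SHORT-ROOT (Potri.017G025900) at 6.62, 5.92 and 5.67 FPKM in the control and 15.7, 14.4 and 15.2 FPKM at 336 h, with differences of 1.65 ± 0.11 and 1.19 ± 0.08, the latter 0.97 after quantile normalization and so under the fold limit. AGL12 (Potri.019G076800) fell by 1.57 ± 0.18. A match of WER (Potri.015G075800), a factor of epidermal fate, had no fragment in the control and was at 1.33, 2.04 and 1.19 FPKM at 336 h, at least 26.5-fold higher against the same floor. It passed the filter only through its values at 336 h, so it could only be called higher. The 2 matches of cytochrome P450 705A5 among the list of root P450 enzymes, Potri.001G270900 and Potri.009G065000, rose by 2.99 ± 0.14 and 2.72 ± 0.17. Of the 12 genes of the RT-qPCR panel, 7 passed the filter and all 7 rose. The panel was chosen by the study from these libraries. CEL2 (Potri.001G083200), an endoglucanase, was at 0.333, 0.363 and 0.488 FPKM in the control and 10.3, 15.4 and 11.2 FPKM at 336 h, and SCL21 (Potri.005G143900), a GRAS factor, at 2.45, 3.45 and 1.97 FPKM in the control and 30.1, 18.4 and 25.7 FPKM at 336 h.

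Most photosynthesis genes fell, with 7 down among 8 tested genes (median difference -1.52). The chlorophyll-binding protein CP29.2 (Potri.006G099500), an antenna protein of photosystem II, was at 184, 185 and 179.9 FPKM in the control and 24.3, 37.1 and 27.5 FPKM at 336 h. The photosystem II 10 kDa polypeptide (Potri.001G438700) was at 12.6, 14.3 and 10.4 FPKM in the control and 0.404, 0.364 and 0.686 FPKM at 336 h, and phosphoribulokinase (Potri.001G134000), an enzyme of carbon fixation, at 9.15, 8.41 and 8.74 FPKM in the control and 1.3, 2.61 and 1.24 FPKM at 336 h. As in 69.9% of all tested genes, the groups did not overlap in these genes. The differences were -2.61 ± 0.14, -3.18 ± 0.13 and -1.88 ± 0.17. All 8 were expressed in the control roots, and the part of green cells or light in the other falls was not tested.

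Of the whole list of clock genes, both morning and evening genes included, 5 of 9 tested genes rose (median 1.31, 5 up and 2 down after quantile normalization). LHY was represented by Potri.002G180800, at 14.1, 14.1 and 15 FPKM in the control and 51.6, 52.9 and 45.5 FPKM at 336 h, and Potri.014G106800, at 17.7, 17.4 and 19.7 FPKM in the control and 50.5, 56.6 and 49.1 FPKM at 336 h. REVEILLE 8 (Potri.016G083900) rose by 1.71 ± 0.09. GIGANTEA (Potri.002G064400), a gene of the evening, had a difference of -0.90 ± 0.07, under the fold limit, and of -1.03 after quantile normalization, past it. Both groups lie a whole number of days apart by their labels, and the sources used here do not give the hour of sampling.

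The roots of 336 h were also compared with those of 96 h on the same medium, to show how far the levels at the earlier time point differed. Of 23796 genes tested, 645 were higher at 336 h than at 96 h (2.71%) and 1180 lower (4.96%), together 7.67%. Against the control, 8.18% of genes had been higher and 1.84% lower at 96 h. These comparisons share libraries with that of 336 h against the control, so their values are given side by side.

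Some of the levels above still changed between 96 h and 336 h. Glutamine synthetase and nitrite reductase had been called lower than the control at 12 h (-1.43 and -1.45) and 48 h (-1.51 and -1.10). They were also called lower at 96 h (-1.99 and -1.98), but not at 24 h (-0.60 and -0.79). Glutamine synthetase root isozyme A (Potri.004G085400) was at 257, 264 and 255 FPKM at 96 h and fell further by 1.79 ± 0.08 to 336 h, NLP2 (Potri.001G293300) fell further by 2.05 ± 0.06, and nitrite reductase (Potri.004G140800) by 1.35 ± 0.07. The ammonium transporter Potri.001G305400 was at 3.86, 3.74 and 3.96 FPKM at 96 h and was higher by 2.88 ± 0.10 at 336 h. The Cu-Zn dismutase 2 (Potri.005G044400) was at 38.4, 38 and 37.7 FPKM at 96 h, when it was not called against the control, and was higher by 2.14 ± 0.06 at 336 h. Of the photosynthesis list, 6 of 8 genes were lower at 336 h than at 96 h. CP29.2 (Potri.006G099500) was at 139, 141 and 134 FPKM at 96 h. LHY (Potri.014G106800) was at 19.3, 18.3 and 17.7 FPKM at 96 h and was higher by 1.45 ± 0.07 at 336 h. CP29.2 had been called lower than the control at 12 h and 48 h (-1.71 and -1.12), and not at 24 h (-0.69) or 96 h. This LHY gene had been called lower than the control only at 12 h (-2.33).

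Other genes were lower at 336 h than at 96 h. In the AP2/ERF family 37 of 75 tested genes were lower at 336 h than at 96 h and 8 were higher, with a median of -0.97. The widest of these were matches of ERF017. Potri.006G138800 was at 119, 124 and 112 FPKM at 96 h and at 4.03, 9.49 and 4.1 FPKM at 336 h, a difference of -4.2 ± 0.26, still above the control values of 0.062, 0.245 and 0.484 FPKM. Potri.018G047300 was at 87, 89.9 and 90.1 FPKM and then at 2.88, 4.25 and 2.28 FPKM, a difference of -4.47 ± 0.15. Of genes of heat shock and protein folding, 12 had been called higher at 96 h, 6 were lower at 336 h than at 96 h, and 4 of the 14 tested were above the control at 336 h, and 2 after quantile normalization. ACS2 (Potri.001G099400), an enzyme of ethylene synthesis, was at 10.3, 10.3 and 11.1 FPKM at 96 h and 0.896, 1.31 and 1.29 FPKM at 336 h, too low for the comparison with the control. A PHL5 match (Potri.016G048000) and ILR3 (Potri.011G030900) were at 0.785, 1.4 and 1.54 FPKM and 30.01, 28 and 29.8 FPKM at 96 h, near their values of 336 h. The adjacent PHL5 match Potri.016G047900 was at 6.13, 5.73 and 6.59 FPKM at 96 h and was lower at 336 h, a difference of -1.27 ± 0.10.

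**Figure D5:**
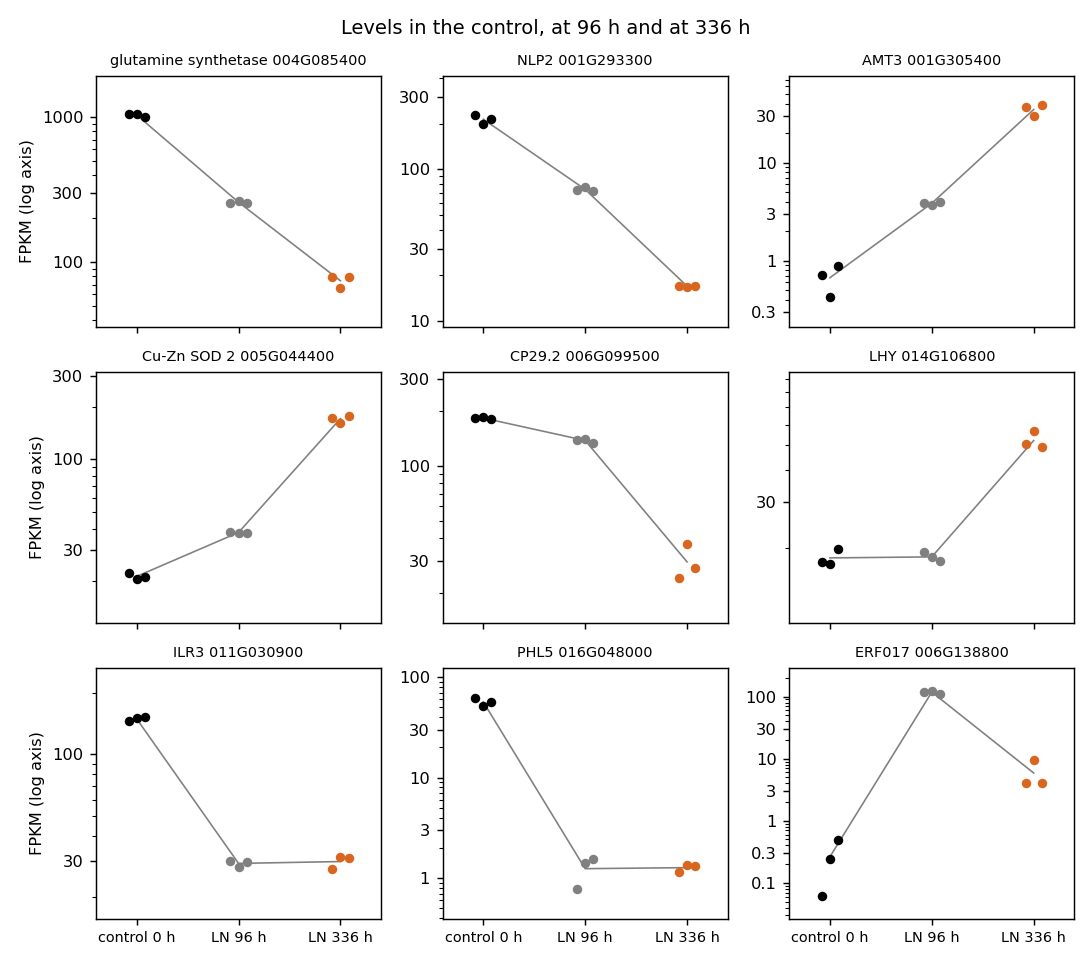
FPKM (log axis) of 9 genes in the 3 libraries each of the control, 96 h and 336 h, with a line through the group means. The upper row shows genes that changed further after 96 h, and the middle row genes called against the control at 336 h but not at 96 h. The lower row shows genes near their 96 h level (ILR3 and the PHL5 match Potri.016G048000) or far below it (ERF017).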

How the data were processed

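Total RNA of whole root systems was sequenced in 3 biological replicates per group. The control (0 h), 96 h and 336 h libraries entered the main comparisons. Libraries of 12 h, 24 h and 48 h were fitted against the control in the same way, for the calls given at those times. All 18 libraries shared 1 fit in an alternative. The authors deposited FPKM per gene, with no other normalization stated. The submitters' processing notes name Bowtie2 2.2.3 and HISAT2 2.1.0, and the study's methods name TopHat2 and the P. trichocarpa genome. The genome version, the counting tool and its use of strand are not given in the sources used here, so reads of overlapping or near-identical genes cannot be told apart.

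Since FPKM steps are whole fragments, fragments and library totals were recovered for all 30485 genes within a tolerance of 0.001 of a whole number, with 16526475 to 17863294 fragments in the 6 libraries. Genes that reached 1 FPKM in 3 or more of the 6 libraries were fitted with limma 3.58.1 (R 4.3.3) on log2(FPKM + 1), without a block, and p-values were adjusted by Benjamini-Hochberg over all tested genes. Differences of at least 1 with an adjusted p under 0.05 were called. Alternatives were quantile normalization, a pseudocount of 0.1, no filter, a variance trend, all 18 libraries in 1 fit, a replicate block, an adjusted p under 0.01, no fold limit, each library left out, and limma-voom on the recovered fragments with at least 10 fragments in 3 libraries. The fits were tested on simulated data.

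Genes were named by rule, starting from those the study identifies. The rule also covered the 10 annotated genes with the largest rise and the 10 with the largest fall. These needed a mean of at least 5 FPKM and no overlap. Up to 3 called genes in each direction per list were covered too. The text leaves out some genes that the rule covers, also among the largest rises. The members, lists and tests were chosen with earlier results of these data known.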

Additional observations from a re-analysis of the deposited data

Results flagged for a closer look

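5 annotated genes were called against the control in one direction at 96 h and in the other at 336 h. Both time points were set against the same 3 control libraries. This choice fixes a difference between 336 h and 96 h, so the differences below, on the log2(FPKM + 1) scale with the SE from limma, are a description with no test. Potri.002G022600, a match of the antimicrobial peptide Snakin-2, had means of 4.14 FPKM in the control, 1.53 FPKM at 96 h and 17.7 FPKM at 336 h, and its difference between 336 h and 96 h was 2.88 ± 0.11. The other 4 were high at 96 h and below the control at 336 h. Potri.008G066000, matched to the nematode resistance protein HSPRO2, went from 25.3 FPKM in the control to 165 FPKM at 96 h and 8.00 FPKM at 336 h, a difference of -4.23 ± 0.14 between the late time points. The small heat shock proteins followed this pattern, with -3.30 ± 0.15 for Potri.010G053400 (25.3 kDa, chloroplastic) and -2.75 ± 0.09 for Potri.017G130700 (15.7 kDa, peroxisomal). Peroxidase 52 (Potri.014G143200), at 4.15 FPKM in the control, 17.1 FPKM at 96 h and 1.51 FPKM at 336 h, had -2.87 ± 0.14. These genes were picked after their values were seen.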

How the results depend on the processing

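Of the 107 named genes tested against the control, none reversed direction under any alternative, and calls were lost only by NLP8, SHORT-ROOT and MLP-like protein 31 after quantile normalization, by NPF3.1B under limma-voom with median ratios and by gibberellin 3-beta-dioxygenase 1 without replicate 1 or replicate 3 of 336 h. With no fold limit, 11086 genes were higher and 3917 lower against the control, 7276 higher and 5652 lower against 96 h, and 520 and 285 listed genes were higher and lower, where 322 and 141 had been called. Limma-voom on library totals called 3580 higher genes against the control, and 1145 higher and 1926 lower against 96 h. With median ratios it called 1836 lower genes against the control, 1038 higher and 2078 lower against 96 h, and 246 listed lower genes. Of 73 counts of rises or falls in a list, 17 moved past the margin used for stable counts after quantile normalization. That number was 37 with no fold limit, 21 with limma-voom on library totals and 25 with median ratios. The cause of these shifts was not tested. Leaving out 1 library at a time gave 1876 to 2024 higher and 915 to 1006 lower genes against the control, 645 to 664 and 1161 to 1255 against 96 h, and a median level 0.241 to 0.289 higher at 336 h. A replicate block gave 1932 higher and 948 lower genes. Deviations of same-numbered libraries correlated at -0.013, -0.065 and 0.03, and those of differently numbered ones at -0.127 to 0.116. No pairing by number was seen, which does not show that the samples were unpaired. With 3 libraries per group and 1 batch name per time point, time, age, batch and N supply cannot be told apart.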
